A study of Mus musculus with 9 samples.

Results

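The genes described here carry glucose into the heart muscle cell and on to the mitochondrion. The list holds 39 genes: 3 of glucose uptake, 10 from hexokinase to aldolase, 8 of lower glycolysis, 4 of lactate metabolism, 11 of pyruvate entry into the mitochondrion and 3 of glycogen. Members were taken by gene symbol from a table of raw read counts for whole mouse hearts, where they are 39 of 55401 rows (55291 distinct symbols). All 39 passed the filter on low counts and were tested among 19051 genes.

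There were 3 groups of 3 hearts. KO-TAC hearts came from c-Myc flox/flox;Tcf21 iCre mice after transverse aortic constriction (TAC), 12 weeks on per the titles. Tamoxifen, given into the peritoneum at 45 mg/kg on 5 days in a row, switched on the Cre. TAC hearts came from wild-type (WT) mice, also at 12 weeks of TAC. Control hearts were WT, and the series' design calls that arm sham. The mice were male and 8 to 12 weeks old, the age the design gives for the operation. TAC narrows the aorta so that the left ventricle pumps against a raised pressure. Tcf21 drives the Cre in fibroblasts, whereas the RNA is from the whole heart, in which fibroblasts are 1 cell type among several. The sources used here do not say whether WT mice also received tamoxifen. No KO-TAC counterpart without TAC, and no group with Cre alone, was analysed here, so effects of tamoxifen and Cre cannot be told apart from those of the deletion.

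As background, the adult heart burns mainly fatty acids, and glucose enters through the insulin-responsive carrier GLUT4 (Slc2a4) and the constitutive carrier GLUT1 (Slc2a1). Hexokinase traps the sugar, phosphofructokinase commits it to glycolysis, and the pyruvate made is either reduced to lactate or oxidised by the pyruvate dehydrogenase complex. Pyruvate dehydrogenase is switched off by the kinases Pdk1 to Pdk4 and on again by the phosphatases Pdp1 and Pdp2. In pressure overload, reliance on glucose is known to increase and isoforms typical of the fetal heart return. Myc binds the DNA sequence CACGTG, an E-box, and many glycolytic genes are known Myc targets in other cells.

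The promoters of 4 members that recur below are shown because their letters can be compared with that E-box. RefSeq windows of 250 bases before to 50 bases after a gene's start (GRCm38.p6) were at hand for 37 of the 39 members, not for Slc2a4 and Pdp1. Tbc1d4, a regulator of GLUT4 trafficking, lies on the minus strand with its window at chr14:101609142-101609441. Pdp2, the second pyruvate dehydrogenase phosphatase, has its window on the plus strand at chr8:104591222-104591521. For Pfkfb2, which makes the phosphofructokinase activator fructose 2,6-bisphosphate, the minus-strand window at chr1:130715772-130716071 is given. For Ldha, the muscle-type subunit of lactate dehydrogenase, the plus-strand window at chr7:46845554-46845853 is given. Pfkfb2 and Ldha also have other windows, which hold no CACGTG and are not printed. Each runs 5′ to 3′ on the gene's strand, and capitals mark every CACGTG.
Tbc1d4: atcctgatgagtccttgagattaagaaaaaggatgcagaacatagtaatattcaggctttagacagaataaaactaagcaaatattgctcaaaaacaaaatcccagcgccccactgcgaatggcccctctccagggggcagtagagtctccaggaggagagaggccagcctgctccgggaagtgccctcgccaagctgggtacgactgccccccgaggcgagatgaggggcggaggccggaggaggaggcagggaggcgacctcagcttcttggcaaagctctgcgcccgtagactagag
Pdp2: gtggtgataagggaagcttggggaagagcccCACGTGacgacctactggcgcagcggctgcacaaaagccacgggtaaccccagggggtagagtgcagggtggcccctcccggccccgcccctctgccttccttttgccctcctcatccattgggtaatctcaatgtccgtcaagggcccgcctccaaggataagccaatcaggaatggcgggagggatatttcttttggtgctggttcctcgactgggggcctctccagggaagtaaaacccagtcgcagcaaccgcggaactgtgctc
Pfkfb2: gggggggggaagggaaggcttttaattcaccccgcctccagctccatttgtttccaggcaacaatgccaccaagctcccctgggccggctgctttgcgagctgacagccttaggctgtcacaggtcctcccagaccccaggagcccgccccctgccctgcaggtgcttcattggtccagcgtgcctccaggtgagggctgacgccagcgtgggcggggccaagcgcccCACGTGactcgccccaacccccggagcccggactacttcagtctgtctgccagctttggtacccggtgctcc
Ldha: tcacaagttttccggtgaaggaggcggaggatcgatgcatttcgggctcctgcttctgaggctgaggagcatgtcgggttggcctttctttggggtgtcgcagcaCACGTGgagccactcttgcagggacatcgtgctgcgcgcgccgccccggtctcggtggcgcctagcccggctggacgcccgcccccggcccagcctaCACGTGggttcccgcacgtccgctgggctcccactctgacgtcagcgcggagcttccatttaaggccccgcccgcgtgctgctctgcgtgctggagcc

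Counted from the gene's start, CACGTG begins at -219 in the Pdp2 window, at -22 in the Pfkfb2 window and at -145 and -48 in the Ldha window, and the Tbc1d4 window has none. The other members with a CACGTG were Slc16a1, Pdk2 and Pfkm. By window, 6 of 56 member windows (10.7%) held it, against 7.15% of all 32851 windows. By gene, counting any window, 6 of 37 members (16.2%) held it, against 8.09% of 27025 genes. A gene with more windows has more chances in this count. The 37 members had 56 windows and the 27025 genes had 32851. Since CACGTG is its own reverse complement, 1 search covers both strands. These are matches of letters and no measure of binding.

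Total counts were 59702513 to 109162107 per library. Mitochondrially encoded genes took 23.8% to 38.5% of them. Myc itself, the targeted gene, was at 4.22, 1.87 and 4.75 CPM (counts per 1000000 library counts, scaled by TMM factors, as all CPM below) in KO-TAC hearts, 8.93, 6.22 and 14.2 in TAC hearts and 2.15, 2.47 and 1.55 in control hearts. Every TAC heart was above every KO-TAC and every control heart, and the KO-TAC and control values overlapped. Summed CPM of 8 cardiomyocyte markers was 36091, 51371 and 56836 in KO-TAC hearts, 33067, 64934 and 11025 in TAC hearts and 60546 to 61108 in control hearts. Activated fibroblast markers (6 genes) ran the other way, at 554, 490.4 and 111 in KO-TAC hearts, 932, 118 and 2122 in TAC hearts and 75.3 to 98.2 in control hearts. Endothelial markers reached 3025 in TAC replicate 3, against 1087 to 2038 in the other 8 hearts. Erythroid markers (6 genes) reached 3027 in it, against 638 to 1241 in the other 8. Smooth muscle and pericyte markers were lowest in it, at 460 against 723 to 1123. Its TMM factor was 1.45, against 0.853 to 1.25 in the other 8. TAC replicate 3 thus stood apart, and TAC replicate 2 lay at the control level for the cardiomyocyte sum. In RNA from a whole heart, fewer cells of a type and less RNA per cell cannot be told apart.

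As a set, the glucose genes were spread out among the hearts of the TAC and KO-TAC groups and tight among controls. The median over the 39 members of log2 CPM, minus the mean of the control hearts, was -0.72, 0.11 and 0.04 in KO-TAC hearts, -0.76, 0.21 and -1.95 in TAC hearts and -0.01 to 0.01 in control hearts. In TAC replicate 2, 33 of 39 members lay above the control mean, whereas 31 lay below it in TAC replicate 1 and 30 in TAC replicate 3. KO-TAC replicate 1 had 30 members below, and KO-TAC replicates 2 and 3 had 18 and 17. Summed over the members, KO-TAC hearts had 8259, 14201 and 14916 CPM, TAC hearts had 7989, 16011 and 3276, and control hearts 14026 to 14473. Over the 38 members that average at least 1 CPM, the highest heart of a group exceeded the lowest by a median of 1.73-fold in KO-TAC hearts, 4.77-fold in TAC hearts and 1.11-fold in control hearts.

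**Figure D1:**
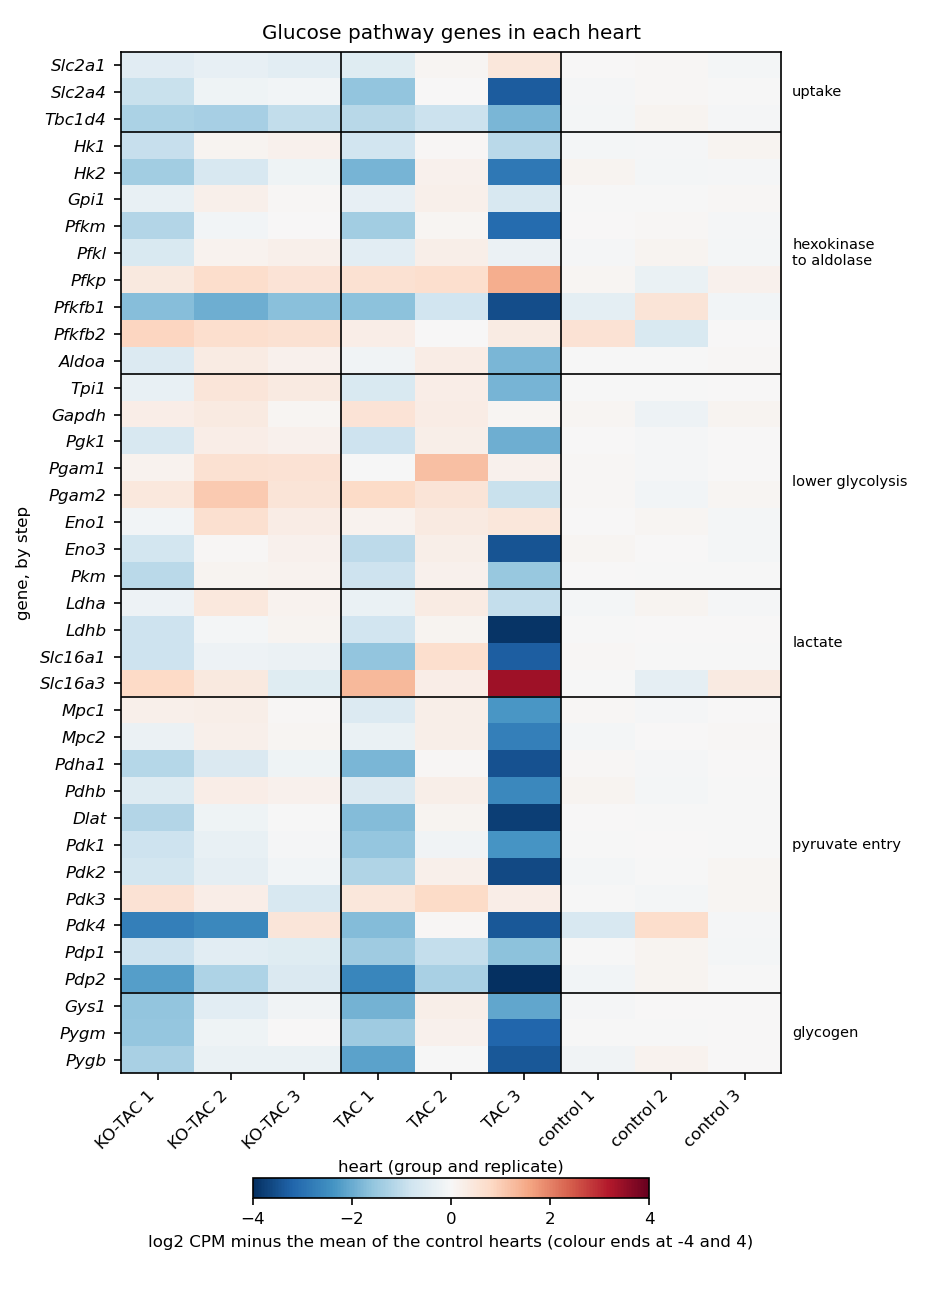
Colour gives log2 CPM minus the mean of the control hearts for 38 members (rows, by step; Aldoc, nearly undetected, is left out) in the KO-TAC, TAC and control hearts (columns). TAC replicate 3, with a median of -1.95, is the bluest column, TAC replicate 2 (0.21) is close to the controls, and Pfkp is above the control mean in all 6 KO-TAC and TAC hearts.

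In none of the 3 comparisons did a member pass edgeR's quasi-likelihood test (adjusted p under 0.05), nor did any gene of the whole table (0% called in each). The labels number the hearts without saying that each is a separate mouse, so p-values measure only the spread between these samples.

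For TAC against control, 10 fitted log2 differences were positive and 29 negative, with a median of -0.56 against 0.03 over all genes tested. At an unadjusted p under 0.05 there were 2 members higher (background 13.2% of all genes) and 4 lower (8.08%). All 3 TAC hearts lay above all 3 controls for 3 members, Pfkp, Pdk3 and Eno1 (background 14.1%), and below for 5, Tbc1d4, Pfkfb1, Pdk1, Pdp1 and Pdp2 (14%). Counts by other tools were larger. DESeq2 called 6 members (Tbc1d4, Pfkfb1, Pdp1 and Pdp2 lower, Pfkp and Slc16a3 higher), against 7.61% of all genes, and limma-voom with sample quality weights, which gives deviating libraries less weight, called 25, against 38%. Without TAC replicate 2, edgeR called 18 members, 2 higher and 16 lower, against 27.5% of all genes. The median was -1.25 without that heart and -0.21 without TAC replicate 3.

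For KO-TAC against TAC, 30 differences were positive and 9 negative, with a median of 0.39 against 0.01 over all genes. Unadjusted p was under 0.05 for 1 member higher (Pdp1, background 2.94%) and 1 lower (Slc16a3, 4.51%). The hearts of both groups were separated for 2 higher members, Pdp1 and Pfkfb2 (background 5.17%), and for 0 lower ones (4.8%). DESeq2 called 0 members (0.869% of all genes), and limma-voom with weights called 9, all higher (5.23%). The median was 1.06 without TAC replicate 2 and 0.05 without TAC replicate 3.

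For KO-TAC against control, 16 differences were positive and 23 negative, with a median of -0.13 against 0.04 over all genes. At an unadjusted p under 0.05 there were 0 members higher (background 3.52%) and 3 lower (2.24%), Tbc1d4, Pfkfb1 and Pdp1. All KO-TAC hearts lay above all controls for 4 members, Pfkp, Pfkfb2, Pgam1 and Pgam2 (12.9%), and below for 14 (13.6%). The 14 were Slc2a1, Slc2a4, Tbc1d4, Hk2, Pfkfb1, Slc16a1, Pdha1, Dlat, Pdk1, Pdk2, Pdp1, Pdp2, Gys1 and Pygb. Some are near ties. The highest KO-TAC heart and the lowest control were at 334.345 and 334.355 CPM for Dlat and at 185.7 and 186.9 for Pdk1. DESeq2 called 1, Tbc1d4 (0.386%), limma-voom with weights 6 (5.2%), and an edgeR fit of only these 6 hearts 2, Tbc1d4 and Pfkfb1 (0.164%). Any pair of these comparisons shares the hearts of 1 group.

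Glucose uptake is represented by 2 carriers and a regulator. Tbc1d4 (AS160; chr14:101442360-101609191, minus strand in GRCm38, the build of all positions here), whose phosphorylation downstream of insulin lets GLUT4 reach the cell surface, was at 48.7, 46.9 and 59.2 CPM in KO-TAC hearts, 55.03, 65.9 and 33.3 in TAC hearts and 113, 127 and 115 in control hearts. Every KO-TAC and TAC heart, TAC replicate 2 included, was below every control. Its level was 2.30-fold lower in KO-TAC hearts than in controls (log2 difference -1.20, SE 0.26, adjusted p = 0.59) and 2.31-fold lower in TAC hearts than in controls (log2 difference -1.21, SE 0.26, adjusted p = 0.13). KO-TAC and TAC hearts overlapped. Slc2a4 (GLUT4) was at 179, 295 and 306 CPM in KO-TAC hearts, 110.4, 337 and 33.4 in TAC hearts and 325, 342 and 333 in control hearts. Its TAC hearts spanned a 10.1-fold range, from below to at the control level (log2 difference -1.06, SE 0.65, adjusted p = 0.35 for TAC against control; log2 difference 0.70, SE 0.65, adjusted p = 0.77 for KO-TAC against TAC). Slc2a1 (GLUT1) was far lower than Slc2a4 per length of annotated exons, at 4.75 ± 0.26 against 95.8 ± 2.32 CPM per kilobase in control hearts (SD, n = 3). It was at 12.2, 13.2 and 12.5 CPM in KO-TAC hearts, 11.9, 17.7 and 22.8 in TAC hearts and 17.0, 17.4 and 15.6 in control hearts, and every KO-TAC heart was below every control (log2 difference -0.40, SE 0.23, adjusted p = 0.86). Against TAC, the log2 difference of Slc2a1 was -0.47 (SE 0.23, adjusted p = 0.67).

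The steps from hexokinase to aldolase hold muscle forms and broadly expressed forms of the same enzymes. Hk2, the insulin-regulated muscle hexokinase, was at 127, 213 and 296 CPM in KO-TAC hearts, 93.3, 376 and 46.7 in TAC hearts and 361, 319 and 328 in control hearts. Every KO-TAC heart was below every control (log2 difference -0.66, SE 0.65, adjusted p = 0.89), and TAC replicate 2 was above them. Hk1, the housekeeping form, was at 72.1, 149 and 155 CPM in KO-TAC hearts, 80.7, 141 and 64.9 in TAC hearts and 131, 132 and 149 in control hearts, with overlap in each comparison (log2 difference 0.39, SE 0.36, adjusted p = 0.77 for KO-TAC against TAC). Pfkm, the muscle phosphofructokinase, was at 394, 807 and 880.4 CPM in KO-TAC hearts, 335, 927 and 105 in TAC hearts and 882, 899.6 and 856 in control hearts.

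The platelet form Pfkp (chr13:6579768-6648777, minus strand), by contrast, was at 58.5, 73.4 and 65.5 CPM in KO-TAC hearts, 68.0, 71.4 and 124 in TAC hearts and 48.0, 37.7 and 50.4 in control hearts. All 6 KO-TAC and TAC hearts exceeded the highest control. Its level was 1.94-fold higher in TAC hearts than in controls (log2 difference 0.95, SE 0.27, adjusted p = 0.14) and 1.45-fold higher in KO-TAC hearts than in controls (log2 difference 0.54, SE 0.26, adjusted p = 0.85). KO-TAC and TAC hearts overlapped (log2 difference -0.42, SE 0.26, adjusted p = 0.71 for KO-TAC against TAC). Per length of annotated exons Pfkp made up 3.30%, 2.08% and 1.71% of the phosphofructokinase transcripts in KO-TAC hearts, 4.36%, 1.77% and 17.4% in TAC hearts and 1.27%, 0.976% and 1.37% in control hearts. By this measure it was the smallest share of the 3 forms in each heart. The share depends on the length used, as the annotated exons of Pfkp total 13401 bases and its longest coding transcript 4145. In CPM, Pfkp in TAC replicate 3 (124) was above Pfkm (105) and Pfkl (84.7). The reads of Pfkp are uncertain, as 17.1% of its 50-base stretches recur in another annotated gene and it overlaps Pitrm1 on the opposite strand. Pfkl, the liver form, ranged from 66.0 to 116 in KO-TAC hearts, 74.8 to 119 in TAC hearts and 96.3 to 108 CPM in control hearts.

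The bifunctional enzymes Pfkfb1 and Pfkfb2 set the level of fructose 2,6-bisphosphate. Pfkfb1 (chrX:150588229-150643878, plus strand), the liver and skeletal muscle isoform, was at 5.52, 4.62 and 5.62 CPM in KO-TAC hearts, 5.71, 10.7 and 1.504 in TAC hearts and 13.8, 25.7 and 16.6 in control hearts. All KO-TAC and TAC hearts were below all controls, though the control hearts themselves differed 1.87-fold. The difference was 3.55-fold for KO-TAC against control (log2 difference -1.83, SE 0.56, adjusted p = 0.84) and 3.14-fold for TAC against control (log2 difference -1.65, SE 0.56, adjusted p = 0.17), lower in both. Pfkfb2 (chr1:130689182-130729253, minus strand), the cardiac isoform, was at 129.8, 112 and 108 CPM in KO-TAC hearts, 85.3, 72.3 and 89.8 in TAC hearts and 106, 46.9 and 72.6 in control hearts. KO-TAC hearts were the highest of the 3 groups without overlap, while the TAC values lay inside the control range. The 1.416-fold difference from TAC did not pass (log2 difference 0.50, SE 0.29, adjusted p = 0.70), nor did the 1.55-fold difference from control (log2 difference 0.63, SE 0.29, adjusted p = 0.85). Of its 50-base stretches, 25.1% recur in another annotated gene.

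Gpi1, the isomerase of glucose 6-phosphate, ranged over 349 to 495 CPM in KO-TAC hearts, 274 to 493 in TAC hearts and 419 to 437 in control hearts. Aldoa, the aldolase of muscle, was among the most abundant members, at 1283, 2361 and 2127 CPM in KO-TAC hearts, 1715, 2318 and 528 in TAC hearts and 1853, 1887 and 1936 in control hearts. TAC replicate 3 and KO-TAC replicate 1 had the lowest values. Aldoc, the brain form, was at most 0.28 CPM in any heart, and no fold is given for it.

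**Figure D2:**
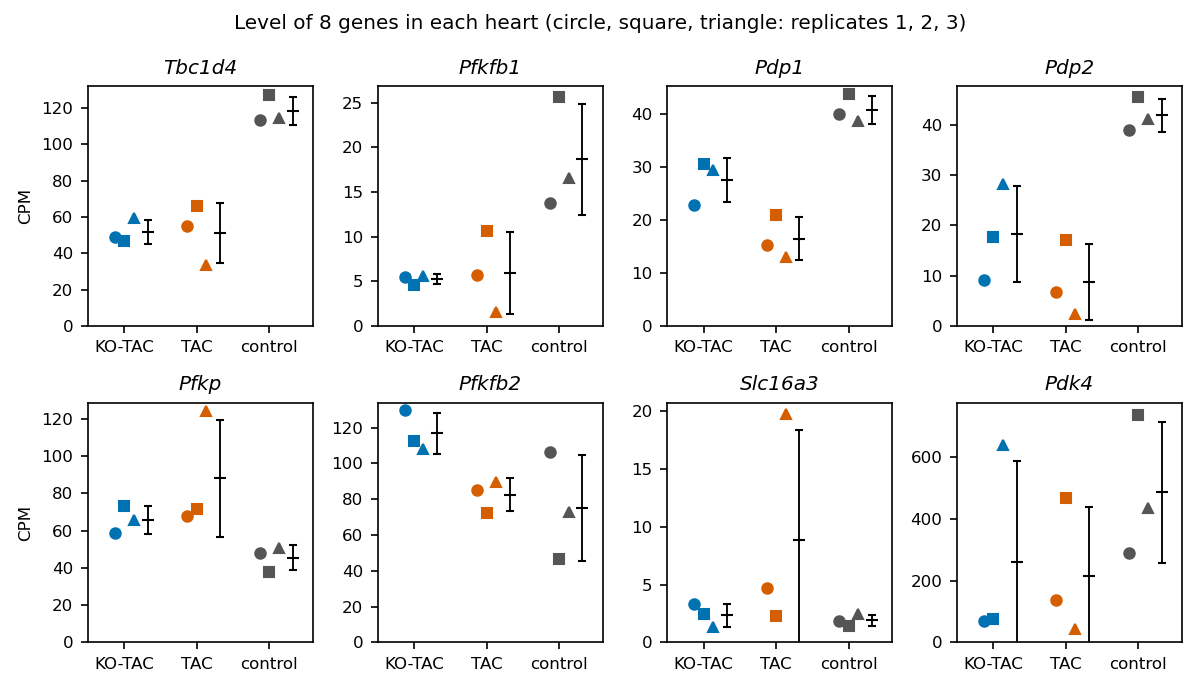
CPM (linear axis from 0) of 8 members in each KO-TAC, TAC and control heart; bars at the side are the mean ± SD of 3 hearts, cut off at 0. Tbc1d4, Pfkfb1, Pdp1 and Pdp2 are lower in all KO-TAC and TAC hearts than in any control (Pdp1 at 13.1 to 30.4 against 38.6 to 43.6 CPM), and Pfkp is higher.

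The 8 genes of lower glycolysis, which turn triose phosphates into pyruvate, had a median log2 difference near 0 for TAC against control (-0.11), of 0.39 for KO-TAC against TAC and of 0.23 for KO-TAC against control. Pgam2, the muscle phosphoglycerate mutase, was at 351, 545 and 373 CPM in KO-TAC hearts, 447, 375 and 140.4 in TAC hearts and 271, 241 and 276 in control hearts. All KO-TAC hearts and TAC replicates 1 and 2 were above all controls, and TAC replicate 3 was below (log2 difference 0.69, SE 0.41, adjusted p = 0.86 for KO-TAC against control). Pgam1, the brain-type mutase, was at 36.5, 51.3 and 49.9 CPM in KO-TAC hearts, 32.7, 77.3 and 37.7 in TAC hearts and 34.4, 31.99 and 33.7 in control hearts. The KO-TAC hearts were above all controls (log2 difference 0.46, SE 0.31, adjusted p = 0.86), and TAC replicate 1 lay among the controls (log2 difference 0.56, SE 0.31, adjusted p = 0.31 for TAC against control).

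Eno1, the ubiquitous enolase, was at 94.8, 159 and 126 CPM in KO-TAC hearts, 112, 129 and 140.0 in TAC hearts and 102, 106 and 96.4 in control hearts, the TAC hearts all above the controls (log2 difference 0.32, SE 0.23, adjusted p = 0.86 for KO-TAC against control). Eno3, the muscle enolase, was at 505, 855 and 934 CPM in KO-TAC hearts, 403, 977 and 75.7 in TAC hearts and 871, 843 and 781 in control hearts. TAC replicate 3 had the lowest Eno3 of the 9 hearts. The triose phosphate isomerase Tpi1 was at 356, 611 and 566 CPM in KO-TAC hearts, 286, 520.1 and 119.6 in TAC hearts and 430.4, 436 and 443 in control hearts (log2 difference 0.73, SE 0.47, adjusted p = 0.72 for KO-TAC against TAC). Pgk1, which makes the pathway's earliest ATP, had the same order of hearts within the KO-TAC and the TAC group, at 158, 298 and 275 CPM in KO-TAC hearts, 138, 290.4 and 63.8 in TAC hearts and 251, 238 and 249 in control hearts (log2 difference 0.57, SE 0.48, adjusted p = 0.76 for KO-TAC against TAC). Pkm, the pyruvate kinase of muscle, ranged over 431 to 991 CPM in KO-TAC hearts, 315 to 1022 in TAC hearts and 889.8 to 919 in control hearts.

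Gapdh was at 79.0, 83.2 and 69.3 CPM in KO-TAC hearts, 95.2, 79.7 and 68.8 in TAC hearts and 69.5, 56.7 and 70.9 in control hearts (log2 difference 0.31, SE 0.20, adjusted p = 0.38 for TAC against control; log2 difference 0.23, SE 0.20, adjusted p = 0.88 for KO-TAC against control). Its level is uncertain, since 82.5% of its 50-base stretches occur in other annotated genes, 222 of them, and the copy Gapdh-ps15 took 32097 reads over the 9 libraries against 55253 for Gapdh. The same holds to a lesser degree for Eno1 (72.2% of stretches shared), Pgk1 (68.0%), Pgam1 (41.5%) and Pkm (34.4%). Pdhb (30.3%), Mpc1 (29.6%), Ldhb (27.0%) and Gpi1 (25.3%) share stretches as well. The copy Mpc1-ps took 47513 reads over the 9 libraries against 116218 for Mpc1, so the level of Mpc1 is uncertain too. The sources used here do not say how reads that map to several places were counted, or whether by strand. A coding gene on the opposite strand overlaps 9 members: Pfkm, Pfkp, Pfkfb1, Pfkfb2, Aldoa, Tpi1, Gapdh, Pdha1 and Gys1.

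The lactate genes are 2 enzyme subunits and 2 carriers. Ldhb, the heart-type subunit of lactate dehydrogenase, was at 619.6, 1059 and 1189.7 CPM in KO-TAC hearts, 654, 1203 and 73.2 in TAC hearts and 1097, 1113 and 1113 in control hearts. Its 16.4-fold range among TAC hearts was the widest in any group among the 38 members that average at least 1 CPM. Ldha was at 325, 508 and 412 CPM in KO-TAC hearts, 309, 471 and 192 in TAC hearts and 354, 408 and 366 in control hearts. Slc16a1 (MCT1), the lactate carrier of cardiomyocytes, was at 108, 167 and 163 CPM in KO-TAC hearts, 64.4, 307 and 19.6 in TAC hearts and 197, 189 and 189 in control hearts. KO-TAC hearts were below all controls, whereas TAC hearts lay on both sides. Slc16a3 (MCT4), the lactate exporter of glycolytic and inflammatory cells, was at 3.30, 2.46 and 1.33 CPM in KO-TAC hearts, 4.66, 2.28 and 19.7 in TAC hearts and 1.85, 1.46 and 2.43 in control hearts. It was 4.65-fold higher in TAC hearts than in controls (log2 difference 2.22, SE 0.71, adjusted p = 0.16) and 3.76-fold lower in KO-TAC hearts than in TAC hearts (log2 difference -1.91, SE 0.70, adjusted p = 0.65), but the groups overlapped in both comparisons. Without TAC replicate 3 the log2 differences were 0.85 for TAC against control and -0.54 for KO-TAC against TAC. TAC replicate 3, which has the highest value, was also the highest heart for neutrophil markers (10.1 summed CPM over 5 genes, Ly6g at 0, against 1.17 to 4.33 in the others). It was highest for macrophage markers too (484 over 8 genes, against 219.9 to 422.6). Csf3r alone gave 7.31 CPM of the neutrophil sum. Not every macrophage marker was highest in that heart, as Lyz2 was at 139 CPM in it and at 180 in KO-TAC replicate 1. The part of these markers in the Slc16a3 value was not tested.

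The 11 genes of pyruvate entry had a median log2 difference of -1.05 for TAC against control, of 0.58 for KO-TAC against TAC and of -0.37 for KO-TAC against control. Both phosphatases that switch pyruvate dehydrogenase on were below the controls in all 6 KO-TAC and TAC hearts. Pdp1 (chr4:11958184-11966452, minus strand), the calcium-stimulated phosphatase, was at 22.8, 30.4 and 29.3 CPM in KO-TAC hearts, 15.3, 20.9 and 13.1 in TAC hearts and 39.9, 43.6 and 38.6 in control hearts. The 3 groups did not overlap, with KO-TAC between TAC and control. Pdp1 was 2.48-fold lower in TAC hearts than in controls (log2 difference -1.31, SE 0.21, adjusted p = 0.11), 1.67-fold higher in KO-TAC hearts than in TAC hearts (log2 difference 0.74, SE 0.21, adjusted p = 0.54) and 1.48-fold lower in KO-TAC hearts than in controls (log2 difference -0.57, SE 0.21, adjusted p = 0.85). Pdp2 (chr8:104591451-104599026, plus strand), the insulin-sensitive phosphatase, was at 9.09, 17.6 and 28.2 CPM in KO-TAC hearts, 6.83, 17.1 and 2.30 in TAC hearts and 39.01, 45.5 and 41.1 in control hearts. It was 4.79-fold lower in TAC hearts than in controls (log2 difference -2.26, SE 0.64, adjusted p = 0.14) and 2.29-fold lower in KO-TAC hearts than in controls (log2 difference -1.19, SE 0.62, adjusted p = 0.85). KO-TAC and TAC hearts overlapped (log2 difference 1.07, SE 0.62, adjusted p = 0.70).

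Among the kinases that switch the complex off, Pdk2 was the most abundant per length in control hearts after Pdk4, at 115 ± 6.58 against 139 ± 65.2 CPM per kilobase (mean ± SD, n = 3), a difference within the spread of Pdk4, and both were ahead of Pdk1 at 24.4 ± 0.418. Pdk4, which fasting and fatty acids are known to induce, was at 68.4, 75.6 and 639.8 CPM in KO-TAC hearts, 136, 469 and 43.6 in TAC hearts and 289, 738 and 435 in control hearts. Hearts of 1 group differed 9.36-fold in KO-TAC, 10.8-fold in TAC and 2.55-fold in control, the widest range within the KO-TAC and within the control group among the 38 members that average at least 1 CPM. Every pair of groups overlapped. Pdk1 was at 107, 155 and 186 CPM in KO-TAC hearts, 65.5, 171 and 37.2 in TAC hearts and 189.9, 193 and 187 in control hearts, all KO-TAC and TAC hearts being below all controls (log2 difference -1.06, SE 0.49, adjusted p = 0.24 for TAC against control; log2 difference 0.71, SE 0.48, adjusted p = 0.72 for KO-TAC against TAC). Pdk2 was at 221, 284 and 339 CPM in KO-TAC hearts, 158, 422 and 29.8 in TAC hearts and 345, 362 and 386 in control hearts. Pdk3 was at a low level throughout, 0.84 to 2.26 CPM, with as few as 65 reads in a library. Its TAC hearts lay above the controls, and its KO-TAC hearts overlapped with both groups.

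Every gene of the complex and of the carrier before it was lowest of the 9 hearts in TAC replicate 3. Pdha1, its E1 alpha subunit, was at 498, 738 and 983 CPM in KO-TAC hearts, 311, 1125 and 96.8 in TAC hearts and 1129, 1058 and 1099.6 in control hearts (log2 difference -1.10, SE 0.71, adjusted p = 0.37 for TAC against control). Dlat, the E2 subunit, was at 152, 302 and 334 CPM in KO-TAC hearts, 101, 366 and 24.9 in TAC hearts and 345, 334 and 339 in control hearts. Pdhb, the E1 beta subunit, ranged over 315 to 542 CPM in KO-TAC hearts, 75.5 to 534 in TAC hearts and 422 to 482 in control hearts. Mpc1 and Mpc2 form the mitochondrial pyruvate carrier. Mpc1 was at 194, 196 and 173 CPM in KO-TAC hearts, 115, 199 and 33.6 in TAC hearts and 174, 162 and 169 in control hearts (log2 difference 0.69, SE 0.49, adjusted p = 0.73 for KO-TAC against TAC), and Mpc2 ranged over 161 to 221, 28.4 to 223 and 182 to 195 CPM in KO-TAC, TAC and control hearts.

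All 3 glycogen genes had negative log2 differences for TAC against control and for KO-TAC against control. Their median by heart, as log2 CPM minus the mean of the control hearts, was -1.55, -0.26 and -0.13 in KO-TAC hearts, -1.89, 0.18 and -3.17 in TAC hearts and -0.05 to 0.03 in control hearts. Gys1, the muscle glycogen synthase, was at 35.0, 78.3 and 95.1 CPM in KO-TAC hearts, 28.0, 122.8 and 24.8 in TAC hearts and 101, 106 and 105 in control hearts. Pygm, the muscle glycogen phosphorylase, was at 331, 854 and 974 CPM in KO-TAC hearts, 362, 1098 and 108 in TAC hearts and 963, 961 and 989 in control hearts. Pygb, the brain-type phosphorylase that the heart also expresses, was at 349.9, 711 and 703 CPM in KO-TAC hearts, 195, 836 and 81.6 in TAC hearts and 781, 932 and 853 in control hearts (log2 difference -1.21, SE 0.71, adjusted p = 0.33 for TAC against control). KO-TAC hearts were below all controls for Gys1 and Pygb.

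Isoform switches were read as the log2 ratio of 2 related genes within a heart, which no library scaling can change. In whole-heart RNA such a ratio cannot tell a switch inside cells from a change in the mix of cells. For TAC against control, 7 of 15 ratios were higher in all TAC hearts and 1, Pygb over Pygm, was lower, with an exact two-sided permutation p of 0.1 each, the smallest that 3 against 3 hearts allow (0.19 adjusted over the 15 pairs). The 7 were Slc2a1 over Slc2a4, Pfkp and Pfkl over Pfkm, Eno1 over Eno3, Ldha over Ldhb, Pdk3 over Pdk2 and Pdp1 over Pdp2. Most of the size came from TAC replicate 3. How often other gene pairs separate in this way was not computed, so the counts of separated ratios have no background. The pairs are not independent, as Pfkm is in both phosphofructokinase ratios. As a share of transcripts per length, Ldha made up 19.9%, 18.5% and 14.1% of Ldha plus Ldhb in KO-TAC hearts, 18.3%, 15.7% and 55.4% in TAC hearts and 13.3%, 14.8% and 13.5% in control hearts. Eno1 made up 5.72%, 5.68% and 4.17% of Eno1 plus Eno3 in KO-TAC hearts, 8.25%, 4.11% and 37.4% in TAC hearts and 3.64%, 3.90% and 3.84% in control hearts. GLUT1 made up 6.30%, 4.25% and 3.90% of the 2 glucose carriers in KO-TAC hearts, 9.65%, 4.95% and 40.3% in TAC hearts and 4.92%, 4.81% and 4.46% in control hearts. In these 3 families TAC replicate 2 was within 1 percentage point of the highest control. Such shares depend on the length used. For instance, the annotated exons of Eno1 total 5379 bases and its longest coding transcript 2027, against 1739 and 1564 for Eno3. The log2 ratios do not use length.

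For KO-TAC against control, 5 ratios were higher in all KO-TAC hearts (Hk1 over Hk2, Pfkp over Pfkm, Pfkl over Pfkm, Eno1 over Eno3 and Pdp1 over Pdp2) and 1, Pfkfb1 over Pfkfb2, was lower (exact permutation p = 0.1 each, 0.25 adjusted). Hk1 made up 28.4%, 32.8% and 26.8% of the 2 hexokinases in KO-TAC hearts, 37.7%, 20.8% and 49.3% in TAC hearts and 20.3%, 22.4% and 24.1% in control hearts. Pfkfb1 made up 7.13%, 6.91% and 8.58% of Pfkfb1 plus Pfkfb2 in KO-TAC hearts, 10.8%, 21.0% and 2.94% in TAC hearts and 19.0%, 49.7% and 29.2% in control hearts. The log2 ratio of Pfkp over Pfkm averaged -3.32 ± 0.51 in KO-TAC hearts, -1.92 ± 1.998 in TAC hearts and -4.29 ± 0.26 in control hearts (SD, n = 3 each). For KO-TAC against TAC no ratio separated the groups, and the lowest exact p was 0.2 (0.67 adjusted). No background was computed for these counts of ratios either.

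**Figure D3:**
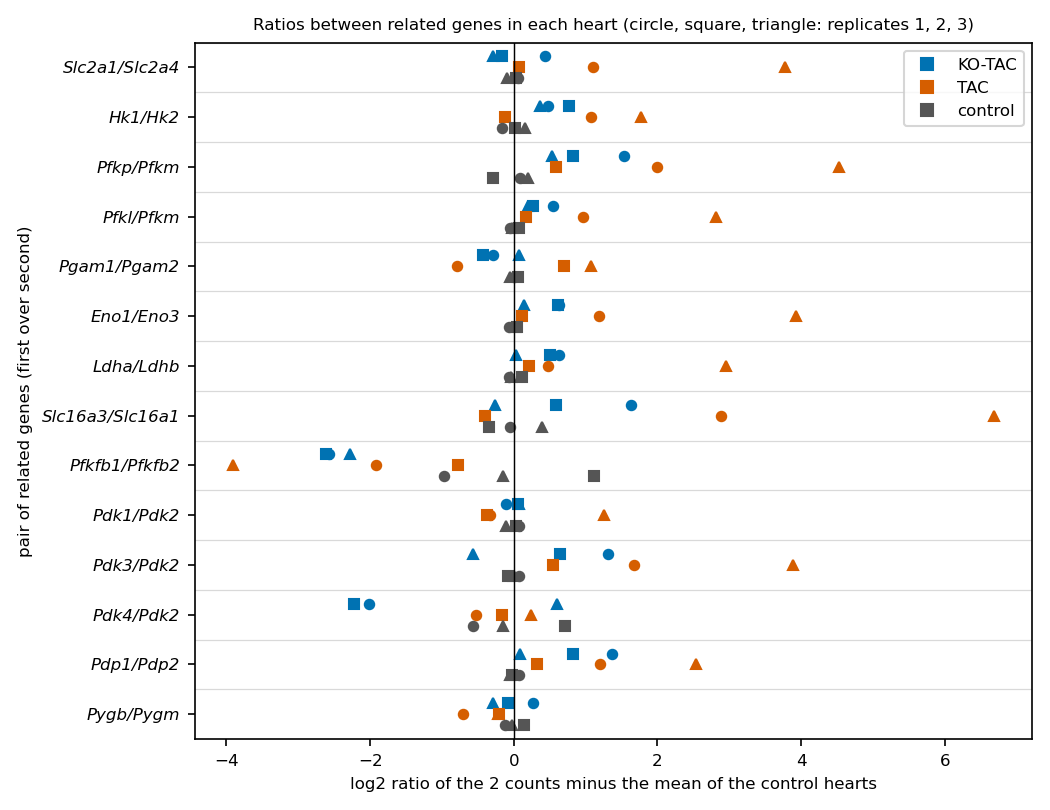
Each point is 1 heart's log2 ratio between 2 related genes, minus the mean of the control hearts, for 14 of the 15 pairs (Aldoc over Aldoa, with almost no Aldoc counts, is left out), KO-TAC above TAC above control within each row. The triangle of TAC replicate 3 lies farthest to the right for 11 of them. TAC replicate 2 (square) lies nearer the control mean than TAC replicate 3. It is still outside the control range for several pairs, such as Pgam1 over Pgam2 and Pdk3 over Pdk2.

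The cardiomyocyte markers moved with most steps. Their summed level, in log2 minus the control mean, was -0.75, -0.24 and -0.10 in KO-TAC hearts, -0.88, 0.09 and -2.46 in TAC hearts and -0.01 to 0.01 in control hearts, the same order of hearts within the TAC group as for the median of the members. Set against that sum, a scale chosen after the data were seen, the median of the members was 0.03, 0.35 and 0.14 in KO-TAC hearts, 0.12, 0.12 and 0.52 in TAC hearts and -0.01 to 0.01 in control hearts. The median of the group differences on that scale was 0.16 for TAC against control, with 21 members positive and 18 negative. It was -0.18 for KO-TAC against TAC and 0.16 for KO-TAC against control. The sign differs from that in CPM in each comparison. The markers in the sum moved by unequal amounts, though each was below all controls in TAC replicate 1. Myh6, the largest, was at 13686 CPM in that heart against 33377 to 33674 in control hearts. Tnni3 was at 2977 against 3061 to 3311, and Mb at 7044 against 7302 to 7954. Whether the sign on that scale holds with other markers was not tested. Pdp2 remained lower on this scale in all 6 hearts, at -1.44, -1.004 and -0.47 in KO-TAC hearts and -1.73, -1.38 and -1.70 in TAC hearts. Pfkfb1 did too, at -0.95, -1.71 and -1.58 in KO-TAC hearts and -0.77, -0.85 and -1.10 in TAC hearts, against -0.40, 0.51 and -0.11 in control hearts. Tbc1d4 was at -0.53, -1.09 and -0.90 in KO-TAC hearts and -0.23, -0.94 and 0.64 in TAC hearts, above the controls only in TAC replicate 3. Pdp1 did not keep its separation: it was at -0.08, -0.17 and -0.37 in KO-TAC hearts, -0.53, -1.05 and 0.83 in TAC hearts and -0.03, 0.10 and -0.07 in control hearts, so TAC overlapped with KO-TAC and with control. For Pfkfb2, too, KO-TAC overlapped with TAC, at 1.62, 0.90 and 0.70 in KO-TAC hearts, 1.14, -0.07 and 2.80 in TAC hearts and 0.57, -0.60 and 0.03 in control hearts. Pfkp was higher in all 6, at 1.13, 0.95 and 0.64 in KO-TAC hearts and 1.47, 0.57 and 3.93 in TAC hearts. It was already above all controls in CPM. The marker sum was below the control mean in each of these hearts but TAC replicate 2. In the hearts with a lowered sum, the scale could only raise Pfkp. What part the share of cardiomyocytes has in the CPM differences and in the isoform ratios was not tested.

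**Figure D4:**
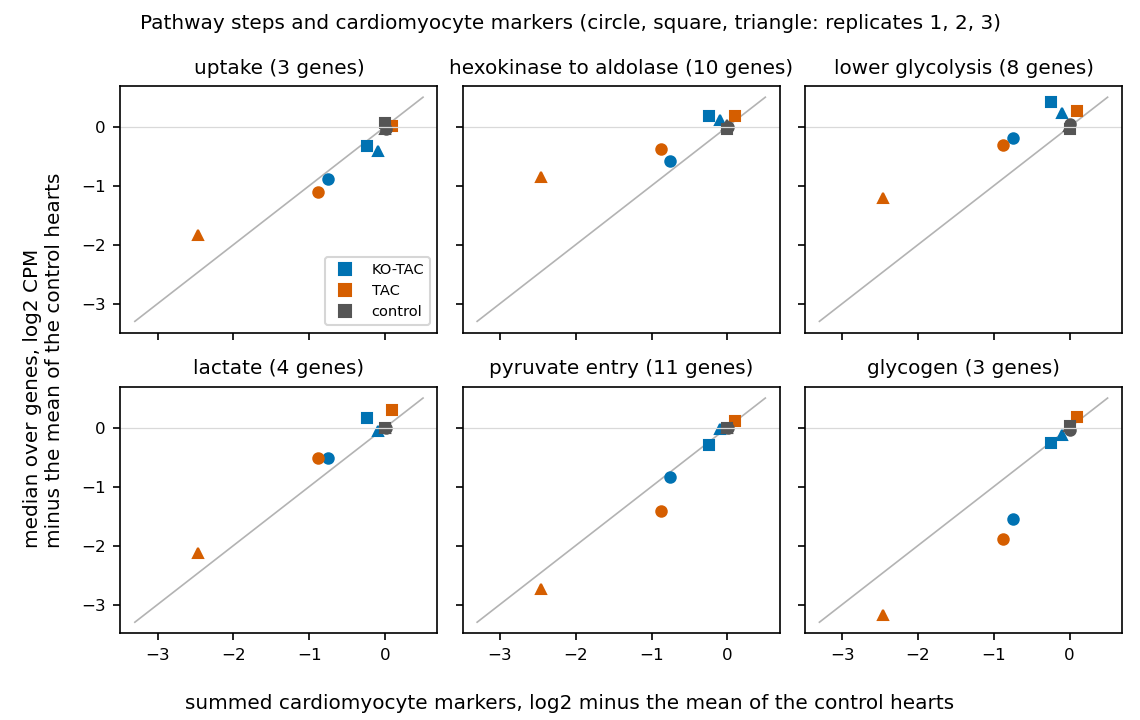
For each step, the median over its genes (vertical) is plotted against the summed cardiomyocyte markers (horizontal), both as log2 minus the mean of the control hearts, 1 point a heart; the grey line marks equal differences. Pyruvate entry and glycogen lie below the line in TAC replicates 1 and 3, while hexokinase to aldolase and lower glycolysis lie above it.

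Other genes of glucose metabolism were read from a list of 51, of which 49 were tested. For these too, edgeR passed 0 in each comparison. At an unadjusted p under 0.05, 6 were higher and 4 lower for TAC against control (13.2% and 8.08% of all genes), which is near the background. The numbers were 1 higher and 2 lower for KO-TAC against TAC (2.94% and 4.51%), and 1 higher and 1 lower for KO-TAC against control (3.52% and 2.24%). By groups without overlap, 4 were higher and 12 lower for TAC against control (14.1% and 14% of all genes). For KO-TAC against TAC these were 1 and 0 (5.17% and 4.8%), and for KO-TAC against control 3 and 15 (12.9% and 13.6%). The median log2 differences of the list were -0.57 for TAC against control, 0.29 for KO-TAC against TAC and -0.20 for KO-TAC against control. Pdpr, the regulatory subunit of the phosphatase formed with Pdp1, was at 8.98, 20.8 and 57.6 CPM in KO-TAC hearts, 5.28, 42.8 and 2.52 in TAC hearts and 93.5, 65.5 and 63.3 in control hearts, without overlap with the controls (adjusted p = 0.25 for TAC and 0.86 for KO-TAC, each against control). Slc16a7 (MCT2), a monocarboxylate carrier of high affinity, was at 2.08, 3.58 and 6.81 CPM in KO-TAC hearts, 1.62, 4.79 and 1.24 in TAC hearts and 7.17, 10.4 and 7.48 in control hearts.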

How the data were processed

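The deposited table holds whole-number read counts per gene symbol, with no sign in the values of normalization by the authors. Trizol RNA and a directional NEBNext kit were used, per the labels' protocols. The submitters' processing notes name HISAT2 2.2.1, StringTie 2.2.1 and Trim Galore 0.6.10, with GRCm38 (mm10) as builds. The sources used here do not say which tool made the counts.

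All 9 libraries entered 1 edgeR 4.0.16 quasi-likelihood fit (two-sided, TMM normalization, low counts removed by filterByExpr at a minimum of 10, Benjamini-Hochberg over 19051 genes, threshold 0.05). The biological coefficient of variation was 42.1%. Replicates of a group differed by more than sampling noise, with a chi-square of at least 23.5 per degree of freedom. Log2 values by heart used a prior count of 2, isoform ratios a prior of 0.5. Positions and exon lengths are GENCODE's for GRCm38. The fit was also run on simulated data, with large changes and a spread lower than here and equal in all hearts. That run cannot show what the fit would detect in these data. Alternatives used limma 3.58.1 and DESeq2 1.42.0. The members, lists, pairs and tests were chosen with earlier results of these data known. Test values are printed, per comparison, for the 12 members of smallest unadjusted p with a mean of at least 1 CPM, and others are named by level only. The other pathway genes named were chosen after their values were seen. Symbols that repeat were taken from the row with the largest total. The values of 1 gene of the wider list are not reported here.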

Additional observations from a re-analysis of the deposited data

How the results depend on the processing

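Members passing an adjusted p under 0.05 numbered 0 in every comparison with edgeR. For TAC against control the number was 6 with DESeq2, 25 with limma-voom and sample quality weights, and 0 to 18 with 1 library left out, the 18 being without TAC replicate 2. For KO-TAC against TAC it was 9 with limma-voom. For KO-TAC against control it was 1 with DESeq2, 6 with limma-voom and 2 with only both groups compared in the fit. The cause of these differences was not tested. No other setting changed these counts, namely RLE factors, library size alone, no low-count filter and removal of mitochondrially encoded genes. Replicate numbers did not pair the hearts (correlations of deviations -0.25 to 0.12), and with a replicate block 0 members passed in each comparison and the medians were -0.76 for TAC against control, 0.51 for KO-TAC against TAC and -0.20 for KO-TAC against control. Scaling by library size alone moved the median of all genes to 0.29 for TAC against control and 0.28 for KO-TAC against control, and that of the members to -0.49 and 0.05. By gene, alternatives were run for the 12 members with printed test values in each comparison, and 1 of these differences changed sign: Slc2a1 for KO-TAC against TAC was 0.023 with limma-voom, against -0.47 with edgeR. The 15 isoform ratios kept their direction under a prior of 5, and some whose groups overlapped changed sign with 1 heart left out. With 3 hearts a group and a TAC group that spans the control level, differences of the size seen here are poorly resolved. Aldoc and Pdk3 have the fewest counts of the members.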

Other observations

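Side branches of the pathway gave values not described above. Pgm2, a mutase of sugar phosphates, was at 6.48, 4.43 and 4.55 CPM in KO-TAC hearts, 8.73, 4.51 and 16.0 in TAC hearts and 3.98, 3.89 and 3.11 in control hearts (log2 difference for TAC against control 1.41, SE 0.41, adjusted p = 0.14). All KO-TAC and TAC hearts were above all controls. Phkg1, the catalytic subunit of muscle phosphorylase kinase, was at 16.0, 8.39 and 13.6 CPM in KO-TAC hearts, 7.08, 20.3 and 3.66 in TAC hearts and 24.5, 35.4 and 24.9 in control hearts, the controls highest without overlap (log2 difference for TAC against control -1.45, SE 0.54, adjusted p = 0.18). Gpd2, the mitochondrial glycerol 3-phosphate dehydrogenase, was at 7.07, 10.6 and 11.8 CPM in KO-TAC hearts, 9.33, 12.7 and 7.59 in TAC hearts and 14.7, 14.2 and 17.7 in control hearts, again with the controls highest without overlap. Mlxipl (ChREBP), a glucose-responsive transcription factor, was at 57.1, 50.8 and 35.1 CPM in KO-TAC hearts, 59.0, 37.2 and 70.8 in TAC hearts and 37.8, 29.7 and 35.4 in control hearts, with overlap. These 4 genes were chosen after their values were seen.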
